A study of Mus musculus with 384 samples.

Results

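Lipid-associated macrophage markers are 9 genes, Gpnmb, Trem2, Cd9, Cd63, Spp1, Mmp12, Itgax, Lgals3 and Tyrobp, known by name from work on macrophages of fat-laden tissue. Each name was matched through its Ensembl identifier in GENCODE M21 to a row of the liver expression table, and all 9 were found among its 21454 genes. All 9 also passed the filter on low values, which left 14602 genes for testing. The study sequenced liver RNA of 192 wild type Diversity Outbred mice, an outbred stock bred from several inbred founder strains, so every mouse has a genome of its own. Mice ate a high fat diet (22% fat by weight) or chow (6% fat by weight) from weaning and were studied at 26 weeks of age. The 4 groups were 46 males on the high fat diet, 48 females on the high fat diet, 48 males on chow and 50 females on chow, with sex taken from the labels and from the letter M or F in each mouse's name. Each mouse carried 1 of the outbreeding generation labels G11L1 (97 mice) and G11L2 (95 mice), and both labels occurred in all 4 groups.

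Macrophages that meet dying, lipid-filled cells take up and digest their contents in lysosomes, and in obese adipose tissue and fatty liver such cells turn on a shared set of genes. TREM2, a surface receptor that binds lipids and lipoproteins, signals through DAP12, the adaptor encoded by Tyrobp. GPNMB is a membrane glycoprotein of lysosome-rich macrophages, CD9 and CD63 are tetraspanins of the cell surface and of late endosomes, and Itgax encodes CD11c, an integrin chain of macrophages and dendritic cells. Mmp12 encodes macrophage elastase, Lgals3 encodes galectin-3, a lectin that binds damaged lysosomes, and Spp1 encodes osteopontin, a secreted ligand of integrins and CD44. Some of these genes are also used by other liver cells: Spp1 by bile duct and activated stellate cells, Cd9 and Cd63 by many cell types, and Tyrobp by resident Kupffer cells and other leukocytes.

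Values were the authors' upper-quartile normalized signal, for which 1 read was worth about 0.0158 in the mouse of median depth. Depth estimated from the low values was 9790000 to 17900000 reads a mouse (median 14200000). Differences were tested with limma on log2(signal + 0.0629), with 4 group means and the generation label, and p-values were adjusted over all tested genes by Benjamini-Hochberg. A gene was called at an adjusted p under 0.05, and a fitted change is a difference of log2 values, which understates the change of low genes. In 11 mice (2 high fat males, 2 high fat females, 4 chow males and 3 chow females) the summed signal of the acinar pancreas markers exceeded 100 times that of the median mouse, and 1 of those chow females also had Xist below 0.1 of the female median. Without these mice every called or uncalled marker in the diet, sex, interaction and generation comparisons kept its direction and its side of the threshold. In whole liver RNA, fewer cells of a type and less RNA per cell cannot be told apart.

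Defining markers of the labelled tissue were present, with a median summed signal of 6 hepatocyte genes of 16980 in high fat males, 21550 in high fat females, 21100 in chow males and 24340 in chow females. The 16 Kupffer cell and macrophage markers summed to medians of 150.7 in high fat males and 180.7 in high fat females, against 128.7 in chow males and 164.2 in chow females. None of those 16 had a median of 0 in any group.

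The high fat diet went with higher levels of most of these genes, and the rarest transcripts differed most. Averaged over males and females, 8 of the 9 were called higher on the high fat diet and none lower, where 15.0% of all tested genes were called higher and 41.9% lower. The median change of the 9 was 0.95 on the log2 scale, against -0.067 over all tested genes. In males 8 of 9 were called higher, where 11.4% of all tested genes were, and in females 8 of 9, where 10.0% were. The exceptions were Cd9 in males and Tyrobp in females. Because the 9 genes were chosen with earlier results of these data known, the shares of all genes are context and not a test of the set.

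Gpnmb (ENSMUSG00000029816, chromosome 6, 49036546 to 49070929, plus strand, GRCm38) showed the largest fitted diet difference of the 9. Its signal in high fat males ran from 0.0175 to 14.2 with a median of 0.711, against 0 to 0.900 with a median of 0.0489 in chow males. In high fat females it ran from 0.0278 to 6.02 with a median of 0.397, against 0 to 0.590 with a median of 0.0639 in chow females. The ranges overlapped in both sexes, yet 21 of 46 high fat males and 16 of 48 high fat females stood above every chow mouse of their sex. The fitted change was 2.76 ± 0.30 in males and 1.8 ± 0.29 in females (log2, SE), with adjusted p-values of 1.57e-14 and 1.46e-07. On chow the gene sat near the limit of detection: the median chow male had about 3 reads of it and the median chow female about 4.5, while the median high fat male had about 41.5 and the median high fat female about 26.5. It was listed at 0 in 6 chow males and 5 chow females and in no high fat mouse.

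Trem2 (ENSMUSG00000023992, chromosome 17, 48346401 to 48354147, plus strand) had the lowest mean signal per kilobase of exon of the 9 in every group, though in chow males its median (0.00768) was above that of Gpnmb (0.00750). High fat males ran from 0.0159 to 2.55 with a median of 0.233, against 0 to 0.213 with a median of 0.0380 in chow males. High fat females ran from 0 to 0.882 with a median of 0.117, against 0 to 0.301 with a median of 0.0472 in chow females. Of the high fat males 24 of 46 lay above all chow males, and 10 of 48 high fat females lay above all chow females. The change was 1.57 ± 0.17 in males and 0.93 ± 0.17 in females (log2, SE; adjusted p = 6.68e-14 and 3.92e-06). These values rest on few reads, with a median of about 14 in high fat males and 8.5 in high fat females, against 2 in chow males and 3 in chow females.

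Mmp12 (ENSMUSG00000049723, chromosome 9, 7344381 to 7369499, plus strand), the macrophage elastase gene, spanned 0.0417 to 9.37 in high fat males with a median of 1.15, against 0 to 0.985 with a median of 0.213 in chow males. High fat females spanned 0.105 to 7.76 with a median of 0.834, against 0.0180 to 0.778 with a median of 0.230 in chow females. The share of mice beyond the chow range was nearly alike in the sexes, 26 of 46 high fat males and 25 of 48 high fat females. Its fitted change was 1.95 ± 0.25 in males and 1.74 ± 0.24 in females (log2, SE; adjusted p = 1.67e-11 and 1.19e-09). A stretch of 2.17% of its exon bases overlaps Mmp1b on the opposite strand, and whether counting used strand is not given in the sources used here.

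Itgax (ENSMUSG00000030789, chromosome 7, 128129547 to 128150657, plus strand), the CD11c gene, had medians of 0.315 in high fat males and 0.108 in chow males, and of 0.436 in high fat females and 0.216 in chow females. Single chow mice reached high values, 1.76 in males and 2.35 in females, so that only 3 of 46 high fat males and none of 48 high fat females exceeded the chow range. The ninth decile of the chow mice was exceeded by 35 high fat males and 26 high fat females. The change was 1.41 ± 0.20 in males and 0.81 ± 0.19 in females (log2, SE; adjusted p = 9.71e-10 and 0.000468).

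The bases around the transcription start of Gpnmb, Trem2, Mmp12 and Itgax are shown because these 4 genes had the largest fitted diet changes of the 9. Each window runs from 70 bases before to 30 bases after a RefSeq start on GRCm38.p6. Capitals mark the letters TGANTCA, a loose form of the AP-1 motif with any base in the middle. That base is A in Trem2 and C or G in the other matches. Capitals in Trem2 and at the first start of Mmp12 also mark TTGCNNAA, a C/EBP motif, which in Mmp12 lies on the minus strand. Both starts of Mmp12 are shown, and the first holds no TGANTCA.
Gpnmb (chr6:49036448-49036547, plus strand): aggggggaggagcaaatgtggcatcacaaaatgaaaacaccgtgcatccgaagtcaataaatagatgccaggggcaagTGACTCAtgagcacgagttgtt
Trem2 (chr17:48346331-48346430, plus strand): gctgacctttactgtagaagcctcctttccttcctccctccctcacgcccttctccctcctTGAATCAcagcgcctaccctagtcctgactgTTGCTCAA
Mmp12, first start (chr9:7344327-7344426, plus strand): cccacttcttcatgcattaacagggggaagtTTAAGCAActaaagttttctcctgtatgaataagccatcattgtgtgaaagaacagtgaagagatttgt
Mmp12, second start (chr9:7347304-7347403, plus strand): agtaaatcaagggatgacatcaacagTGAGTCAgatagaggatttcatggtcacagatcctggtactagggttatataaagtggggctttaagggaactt
Itgax (chr7:128129480-128129579, plus strand): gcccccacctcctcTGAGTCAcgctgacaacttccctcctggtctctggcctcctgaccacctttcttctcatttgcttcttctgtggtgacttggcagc

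Promoter entries, from 250 before to 50 after the start, were found for 8 of the 9 genes, with 10 starts in all. On both strands, TGANTCA occurred in 4 of the 8 genes, starting 8 bases after the start in Gpnmb and 9, 44 and 56 bases before it in Trem2, the second start of Mmp12 and Itgax. It occurred in 7.81% of the 32851 RefSeq mouse promoters of that length. TTGCNNAA lay in Trem2, Mmp12 and the second start of Spp1 and in 10.8% of all promoters, and GAGGAAGT, the core that PU.1 binds, lay in Spp1 and Mmp12 and in 3.20% of all promoters. CATGTG, the M-box core, lay in Cd9 and in the second start of Mmp12 and in 14.2% of all promoters, while the E-box CACGTG, held by 7.15% of all promoters, was in none of the 10. No match overlapped another motif, and the windows of Cd63 and Lgals3 held none of the 5 motifs. These matches are letters in a window and were not tested against the expression values.

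Cd63 (ENSMUSG00000025351, chromosome 10, 128900989 to 128912822, plus strand), the late endosomal tetraspanin, had medians of 0.998 in high fat males and 0.564 in chow males, and of 0.976 in high fat females and 0.636 in chow females. Its highest values were 7.86 in a high fat male and 5.68 in a high fat female, against 3.43 in a chow male and 1.19 in a chow female. Accordingly 5 of 46 high fat males and 21 of 48 high fat females lay above the chow range of their sex. The highest chow male stood far above the ninth decile of chow males (0.918). Counted against the chow ninth decile of their sex, 26 high fat males and 30 high fat females lay above. The change was of like size in the sexes, 0.96 ± 0.16 in males and 0.94 ± 0.15 in females (log2, SE; adjusted p = 7.59e-08 and 2.19e-07).

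Cd9 (ENSMUSG00000030342, chromosome 6, 125460266 to 125494791, minus strand), the other tetraspanin, behaved differently by sex. High fat males ran from 1.40 to 10.1 with a median of 2.66, against 0.938 to 5.81 with a median of 3.05 in chow males. High fat females ran from 1.49 to 8.00 with a median of 3.50, against 0.871 to 6.80 with a median of 2.58 in chow females. In males 29 of 46 high fat mice lay below the chow median, and in females 13 of 48 did. The change was -0.18 ± 0.11 in males (adjusted p = 0.184) and 0.49 ± 0.11 in females (adjusted p = 0.000159). Averaged over the sexes it was 0.16 ± 0.078 and not called (adjusted p = 0.0761), though it was called after median-of-ratios rescaling (0.23, adjusted p = 0.0119) and after quantile normalization (0.23, adjusted p = 0.0128). Of its exon bases, 10.7% overlap Gm26728 on the opposite strand.

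Spp1 (ENSMUSG00000029304, chromosome 5, 104435118 to 104441050, plus strand) had the highest mean signal per kilobase of exon of the 9 in high fat males, high fat females and chow males, and stood below Tyrobp in chow females (3.15 against 3.70). High fat males ran from 3.57 to 98.7 with a median of 12.2, against 1.92 to 47.9 with a median of 5.75 in chow males. High fat females ran from 2.92 to 38.2 with a median of 7.54, against 2.68 to 8.93 with a median of 4.99 in chow females. Several chow males had high Spp1, so 2 of 46 high fat males stood above the chow range, against 18 of 48 high fat females. The change was 0.85 ± 0.18 in males and 0.73 ± 0.17 in females (log2, SE; adjusted p = 1.94e-05 and 0.000372). Of its exon bases, 18.8% overlap Gm42793, which lies on the same strand.

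Lgals3 (ENSMUSG00000050335, chromosome 14, 47367751 to 47386160, plus strand), the galectin-3 gene, ran from 0.367 to 9.37 in high fat males with a median of 1.24, against 0.357 to 1.12 with a median of 0.627 in chow males. In high fat females it ran from 0.399 to 4.68 with a median of 1.23, against 0.333 to 2.55 with a median of 0.982 in chow females. Above the chow range lay 30 of 46 high fat males, the highest such count of the 9 genes in either sex, and 4 of 48 high fat females. The highest chow female was again F349, and the chow ninth decile was exceeded by 32 high fat males and 17 high fat females. The change was 1.11 ± 0.14 in males and 0.39 ± 0.14 in females (log2, SE; adjusted p = 4.72e-11 and 0.0225).

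Tyrobp (ENSMUSG00000030579, chromosome 7, 30413760 to 30417585, plus strand), the DAP12 gene, ran from 1.02 to 6.23 in high fat males with a median of 2.06, against 0.654 to 2.78 with a median of 1.5 in chow males. High fat females ran from 1.26 to 5.61 with a median of 2.62, against 1.07 to 5.90 with a median of 2.26 in chow females. The chow range of their sex was exceeded by 13 of 46 high fat males and none of 48 high fat females. Its top in females was set by a single chow mouse, F349. The ninth decile of the chow mice was exceeded by 24 high fat males and 11 high fat females. The change was 0.51 ± 0.096 in males (adjusted p = 2.40e-06) and 0.15 ± 0.094 in females (adjusted p = 0.203).

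**Figure D1:**
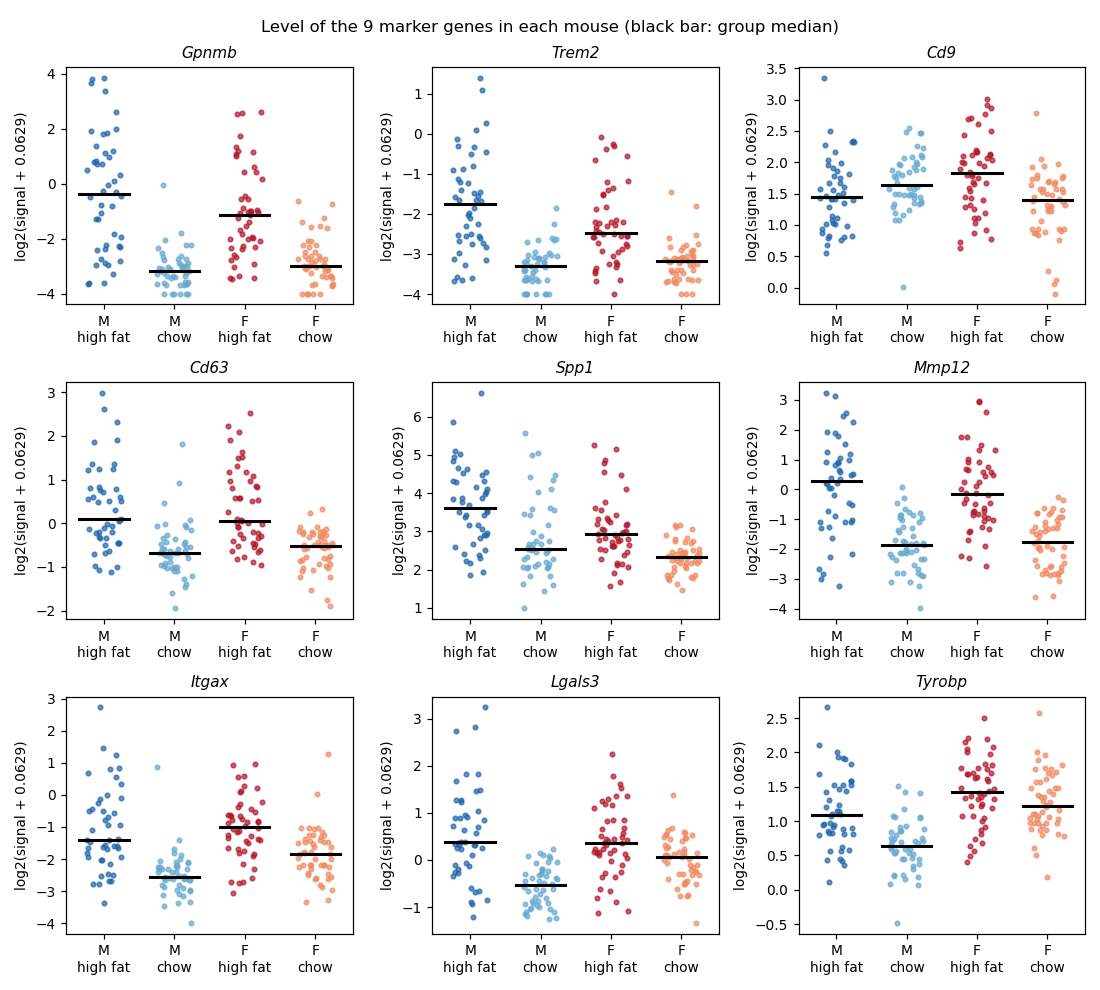
Level of each of the 9 genes in every mouse on the log2(signal + 0.0629) scale, with 46 high fat males, 48 chow males, 48 high fat females and 50 chow females from left to right. Points are mice and black bars are group medians; the high fat groups of Gpnmb, Trem2 and Mmp12 reach far above their chow groups while their lower ends overlap, and Cd9 in males has a lower median on the high fat diet.

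The 9 genes differed widely in level per kilobase of merged exons. Mean signal per kilobase in high fat males was 10.2 for Spp1, 3.49 for Tyrobp, 1.48 for Cd9, 0.990 for Lgals3, 0.431 for Cd63, 0.328 for Gpnmb, 0.249 for Mmp12, 0.147 for Itgax and 0.0765 for Trem2. In chow males the same measure was 5.63 for Spp1, 2.33 for Tyrobp, 1.62 for Cd9, 0.348 for Lgals3, 0.182 for Cd63, 0.0376 for Mmp12, 0.0316 for Itgax, 0.0114 for Gpnmb and 0.00889 for Trem2. Gpnmb thus stood above Mmp12 and Itgax in the mean of high fat males and below both in chow males. By median it stood below Mmp12 also in high fat males (0.109 against 0.159), and above Itgax there (0.0656). In high fat females the mean of Gpnmb (0.147) lay above that of Itgax (0.113) and below that of Mmp12 (0.195), while its median (0.0610) lay below both (0.0909 and 0.115). In high fat males the SD was 169% of the mean for Gpnmb, 116% for Mmp12 and 151% for Itgax. The order of these neighbours, measured in the same mice, was not tested.

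The difference between the sexes in the diet effect was tested directly. It was called for Lgals3, whose diet change was larger in males by 0.72 ± 0.20 (log2, SE, adjusted p = 0.0124), and for Cd9, whose diet change was lower in males by -0.67 ± 0.16 (adjusted p = 0.00242). That is 1 of 9 higher and 1 of 9 lower in males, where 1.46% of all tested genes were called higher and 6.92% lower. Tyrobp (0.36 ± 0.13, adjusted p = 0.0723), Trem2 (0.64 ± 0.24, adjusted p = 0.0774), Gpnmb (0.95 ± 0.42, adjusted p = 0.134) and Itgax (0.60 ± 0.28, adjusted p = 0.158) had larger estimates in males that did not pass, with 95% intervals of 0.10 to 0.62, 0.16 to 1.12, 0.14 to 1.77 and 0.060 to 1.15. Mmp12 (0.22 ± 0.34), Spp1 (0.12 ± 0.25) and Cd63 (0.028 ± 0.22) had intervals on both sides of 0. Within generation labels the Cd9 difference was -0.66 in G11L2 mice (adjusted p = 0.182) and -0.67 in G11L1 mice (adjusted p = 0.0663), and that of Lgals3 was 0.81 in G11L2 mice (adjusted p = 0.244) and 0.63 in G11L1 mice (adjusted p = 0.147), the same directions with neither gene called in the smaller groups.

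**Figure D2:**
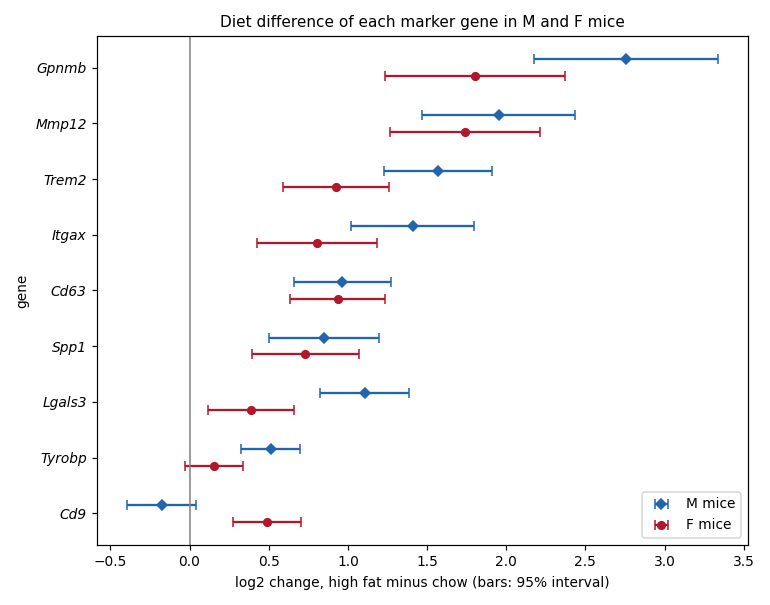
Fitted diet difference of each gene (log2, high fat minus chow) in 94 M mice (blue diamonds) and 98 F mice (red circles), with 95% intervals from limma. Every interval but those of Cd9 in M mice and Tyrobp in F mice lies to the right of 0, and the M and F intervals of Lgals3 and of Cd9 do not overlap.

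Between males and females on the same diet the 9 genes did not move one way. On chow, Spp1 (0.48 ± 0.17, adjusted p = 0.0117) and Cd9 (0.36 ± 0.11, adjusted p = 0.00270) were higher in males, 2 of 9 where 44.1% of all tested genes were. Itgax (-0.64 ± 0.19), Tyrobp (-0.63 ± 0.094) and Lgals3 (-0.57 ± 0.14) were lower in chow males, 3 of 9 where 19.1% of all tested genes were (adjusted p = 0.00262, 1.35e-09 and 0.000196). The median of all genes was itself shifted by 0.102 toward males on chow and by -0.0082 after median-of-ratios rescaling, and with that rescaling the Spp1 change was 0.36 (adjusted p = 0.0766) and the Cd9 change 0.24 (adjusted p = 0.0614), neither called. The 3 genes lower in chow males moved with the Kupffer cell and macrophage markers, of which 15 of 16 were lower in chow males (median -0.60), and with lymphocyte markers, of which 11 of 11 were. The part of those cells in the sex difference was not tested.

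On the high fat diet, Spp1 (0.60 ± 0.18, adjusted p = 0.00264) and Trem2 (0.53 ± 0.17, adjusted p = 0.00701) were higher in males, 2 of 9 where 31.5% of all tested genes were. Cd9 (-0.31 ± 0.11, adjusted p = 0.0157) and Tyrobp (-0.27 ± 0.096, adjusted p = 0.0124) were lower in high fat males, 2 of 9 where 18.3% of all tested genes were. Lower with them were 13 of 16 Kupffer cell and macrophage markers, 11 of 11 lymphocyte markers and 7 of 8 sinusoidal endothelial markers, whose part in these differences was not tested. Gpnmb had a higher mean signal in high fat males, 2.13 ± 3.60 (SD, n = 46), than in high fat females, 0.960 ± 1.49 (SD, n = 48), but its log2 difference of 0.65 ± 0.30 did not pass (adjusted p = 0.0580). Within generation labels, 2 of 9 were called on chow in G11L2 mice and 4 in G11L1 mice, and on the high fat diet 0 in G11L2 mice and 2 in G11L1 mice, by limma at the same threshold.

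Variation between mice of 1 group also differed by diet. Measured as the distance of a log2 value from its group median, it was called larger on the high fat diet, averaged over the sexes, for 6 of the 9 genes, where 1.86% of all tested genes were. In males alone 5 were called (Gpnmb, Trem2, Mmp12, Itgax and Lgals3), where 0.952% of all tested genes were, and in females alone 2 (Gpnmb and Cd63), where 0.247% were. For Gpnmb the mean deviation was 1.8 in high fat males and 1.31 in high fat females, against 0.491 in chow males and 0.623 in chow females, a difference of 1.00 ± 0.13 (adjusted p = 7.14e-10). Trem2 (0.51 ± 0.076), Mmp12 (0.44 ± 0.10), Cd63 (0.38 ± 0.073), Itgax (0.37 ± 0.092) and Lgals3 (0.29 ± 0.063) were called with adjusted p-values of 3.06e-07, 0.00750, 0.000255, 0.00974 and 0.00164. Spp1 (0.22 ± 0.082, adjusted p = 0.143), Tyrobp (0.097 ± 0.041, adjusted p = 0.208) and Cd9 (0.095 ± 0.050, adjusted p = 0.340) were not. Low chow values lie near the pseudocount, which narrows their spread on this scale, and with a pseudocount 10 times smaller 3 of the 9 were called, Gpnmb, Cd63 and Lgals3.

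Several of the highest values fell in the same mice. Among high fat males, 35 of 46 had at least 1 of the 9 genes above every chow male, 24 had at least 3 and 9 had at least 5. Among high fat females the counts were 31, 17 and 9 of 48. The male M425 had all 9 above the chow range, with 14.2 for Gpnmb, 2.05 for Trem2, 57.6 for Spp1 and 8.77 for Mmp12, and it was the highest of all high fat males for Gpnmb, Cd9 and Cd63. M367 had 7 of 9 above the range and was the highest high fat male for Trem2 (2.55), Spp1 (98.7), Mmp12 (9.37), Lgals3 (9.37) and Tyrobp (6.23). M405 also had 7, with Gpnmb at 14.0 and Lgals3 at 6.96. Among females F416 had 7, with Gpnmb at 6.02, Spp1 at 38.2 and Mmp12 at 7.54, and F358, F412 and F419 had 6 each. At the other end, 11 high fat males and 17 high fat females had none of the 9 above the chow range. Like counts over all tested genes were not made, and each range rests on its highest chow mouse. In females that mouse was F349 for Itgax, Lgals3 and Tyrobp alike.

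**Figure D3:**
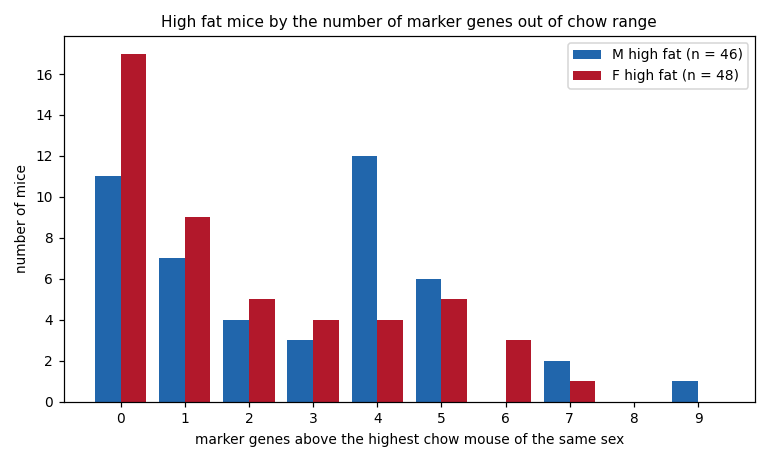
Number of high fat mice (vertical axis) by how many of the 9 genes exceeded the highest chow mouse of the same sex (horizontal axis), with 46 M mice in blue and 48 F mice in red. The bars at 0 hold 11 M and 17 F mice, and the single mouse at 9 is a male.

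Within the high fat groups most pairs of the 9 genes were correlated, and within the chow groups few were. Each r was computed over the mice of 1 group on log2 values, with a permutation test of 100000 resamples adjusted over 3384 relations (pairs of the 9 genes, and each with the cell type markers, in 4 groups). Of the 36 pairs, 31 were called positive in high fat males and 27 in high fat females, against 1 in chow males and 5 in chow females, with none called negative. The median r was 0.537 in high fat males and 0.669 in high fat females, against 0.0571 in chow males and 0.0843 in chow females. Median rho was 0.466, 0.621, 0.0798 and 0.116 in the same order, with 21, 26, 1 and 5 pairs called. Leaving out the 2 mice farthest from the median of the first gene gave median r values of 0.467 in high fat males and 0.614 in high fat females, against 0.0793 in chow males and 0.127 in chow females. It lowered the pairs called in high fat males to 18. The difference of the correlations between diets was not tested, and on chow the low read counts of Gpnmb and Trem2 limit any r. All values of a mouse share its library and its scaling. Like counts over pairs of other tested genes were not made, and some of the 9 were also called with markers of other cells. In high fat males Lgals3 was called positive with 6 of 6 neutrophil markers and Mmp12 with 0 of 6.

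Gpnmb, Trem2 and Mmp12 were closely correlated on the high fat diet. Gpnmb and Mmp12 had r = 0.906 in high fat males and 0.874 in high fat females, against 0.185 in chow males and 0.303 in chow females. Without the 2 farthest mice these were 0.892 and 0.839, against -0.00946 and 0.299. Gpnmb and Trem2 had r = 0.864 in high fat males and 0.874 in high fat females, against 0.0990 in chow males and 0.317 in chow females. For Trem2 and Mmp12 r was 0.889 in high fat males and 0.743 in high fat females. Cd63 joined them, at 0.779 with Gpnmb in high fat males and 0.809 in high fat females. Each of these r values on the high fat diet had a permutation p of 1e-05, the smallest the test could give, and an adjusted p of 0.000166.

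Lgals3 and Tyrobp were correlated in all 4 groups. Lgals3 and Tyrobp had r = 0.798 in high fat males and 0.820 in high fat females, against 0.546 in chow males and 0.719 in chow females, all called by the permutation test (adjusted p = 0.000166, 0.000166, 0.000891 and 0.000166). Itgax and Tyrobp had r = 0.598 in high fat males, 0.615 in high fat females and 0.693 in chow females, all called, and 0.288 in chow males, which was not (adjusted p = 0.163). Spp1 and Mmp12 had r = 0.470 in high fat males and 0.668 in high fat females, against -0.360 in chow males and -0.184 in chow females, the last pair not called (adjusted p = 0.0605 and 0.395). For Cd9 and Tyrobp r was 0.302 in high fat males and 0.0632 in high fat females, and none of the 8 pairs with Cd9 was called in high fat females, while 5 were in high fat males by r and none by rho (adjusted p from 0.0818 to 0.626).

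**Figure D4:**
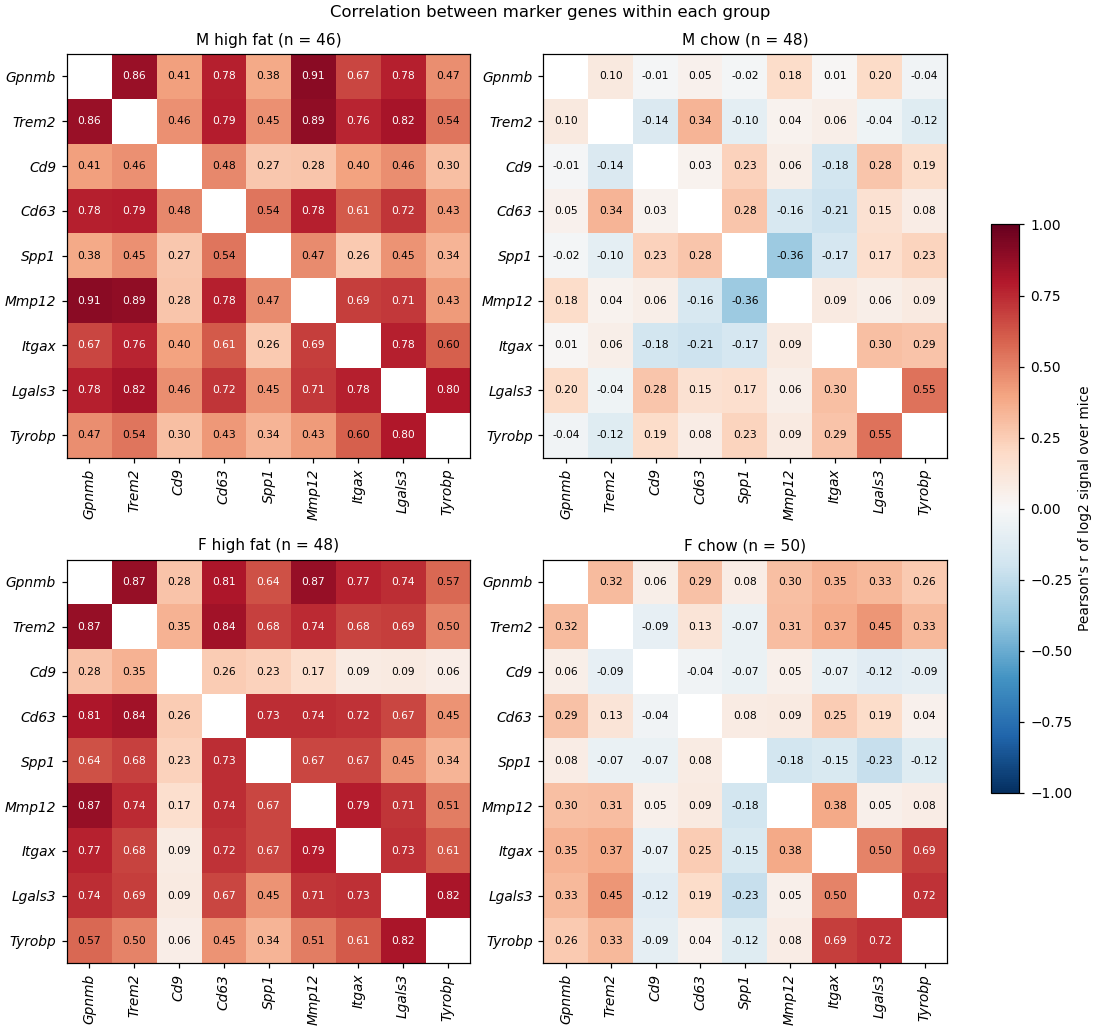
Pearson's r of log2 signal between the 9 genes over the mice of each group, with M high fat and M chow above and F high fat and F chow below, and the r printed in each cell. The high fat panels are mostly red, palest in the Cd9 row and, in M mice, also in the Spp1 row. Median r in them is 0.537 in M and 0.669 in F mice. The chow panels are pale apart from Lgals3 with Tyrobp and, in F mice, Itgax with Tyrobp and Lgals3.

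Over all 192 mice, after subtracting each group's median, the genes most like Gpnmb among the 14601 other tested genes were Mmp12 (rho = 0.666), Trem2 (0.635), Lgals3 (0.571), Itgax (0.569) and Cd63 (0.566), all of them from the 9. The 5 nearest to Trem2 were also from the 9, in the order Gpnmb (0.635), Mmp12 (0.582), Cd63 (0.568), Itgax (0.554) and Lgals3 (0.522). For Mmp12 the 3 nearest were Gpnmb, Trem2 and Itgax (0.575). Cd63 was nearest to the collagen gene Col3a1 (0.591), then to Trem2 and Gpnmb. Itgax was nearest to Ccr2, the chemokine receptor of recruited monocytes (0.680), Ubd (0.646) and Evl (0.641). Lgals3 was nearest to Evl (0.772), the beta2 integrin gene Itgb2 (0.765) and Tyrobp (0.749). Tyrobp was nearest to the complement genes C1qb (0.865) and C1qa (0.842), with the protease gene Ctss (0.856) between them. Spp1 was nearest to Epcam (0.460), an epithelial adhesion gene of bile duct cells, Mfge8 (0.432) and Col1a1 (0.432), and Cd9 to Spon2 (0.425), Rab3d (0.391) and Fkbp1a (0.380). The median rho with all other genes lay between -0.146 and -0.0325 for the 9.

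**Figure D5:**
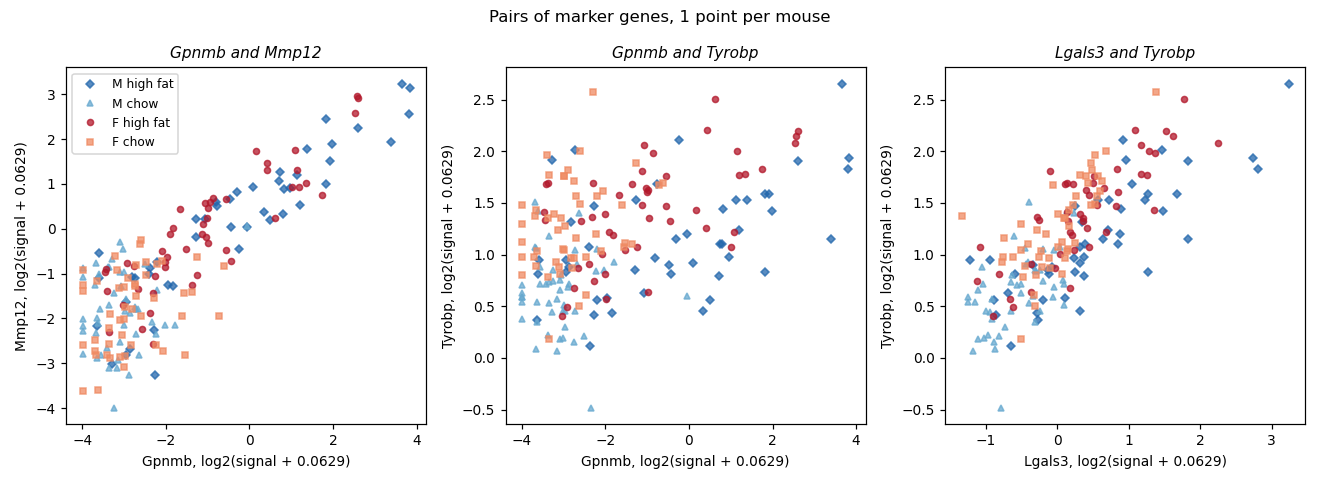
Scatter of 3 pairs of the 9 genes with 1 point per mouse, both axes as log2(signal + 0.0629), high fat mice in dark and chow mice in light colours. Gpnmb and Mmp12 line up in high fat mice (r = 0.906 in M, 0.874 in F) and not in chow mice (0.185 and 0.303), Gpnmb and Tyrobp spread more widely, and Lgals3 and Tyrobp line up in all 4 groups.

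Markers of other liver cells were set beside these values. The 16 Kupffer cell and macrophage markers were called higher on the high fat diet in 9 and lower in 1, with a median of 0.17. Over all tested genes 15.0% were called higher and 41.9% lower, the shares to hold beside this and the later diet counts. In males 10 rose and 1 fell, where 11.4% of all tested genes rose and 39.8% fell. In females 1 rose and 3 fell, where 10.0% and 23.3% did. Their summed signal ran from 73.9 to 325.6 in high fat males and 66.6 to 309.9 in high fat females, against 61.7 to 201.4 in chow males and 95.4 to 510.2 in chow females. Cd68, a lysosomal glycoprotein of macrophages, changed by 0.39 ± 0.070 (adjusted p = 7.24e-07), and the scavenger receptor gene Cd163 by -0.59 ± 0.12 (adjusted p = 5.45e-06). Tyrobp tracked this list in every group, with 14 of 16 markers called positive in high fat males, 15 in high fat females, 14 in chow males and 16 in chow females. Gpnmb was called positive with 3 of 16 in high fat males and 3 in high fat females, and negative with Cd163 in high fat males (r = -0.649, permutation test, adjusted p = 0.000166). With Clec4f, a marker of resident Kupffer cells, Gpnmb had r = -0.262 in high fat males and 0.165 in high fat females, and Tyrobp had r = 0.414 and 0.724. With C1qb, Gpnmb had r = 0.368 in high fat males and 0.355 in high fat females, neither called by the permutation test (adjusted p = 0.0605 and 0.0632).

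Monocyte markers were called higher in 4 of 6 tested, among them Ccr2 (0.57 ± 0.095, adjusted p = 7.55e-08) and Cx3cr1 (0.63 ± 0.11, adjusted p = 5.15e-07), and none was lower. Their summed signal had medians of 2.78 in high fat males and 3.48 in high fat females, against 1.93 in chow males and 2.83 in chow females. Ccr2 was correlated with Gpnmb at r = 0.75 in high fat males and 0.620 in high fat females, and with Itgax at 0.791 and 0.688, all called by the permutation test (adjusted p = 0.000166). Over the 6 tested markers the median r with Gpnmb was lower, 0.445 in high fat males (4 called positive) and 0.281 in high fat females (2 called). With Itgax it was 0.61 in high fat males (5 called) and 0.419 in high fat females (3 called). Dendritic cell markers were higher in 2 of 7, and neutrophil markers higher in 4 and lower in 1 of 6. Lymphocyte markers were higher in 1 of 11 and platelet markers in 2 of 3, where 15.0% of all tested genes were. Ly6g, which defines neutrophils, had a median of 0 in every group. The part of these cells in the changes of the 9 genes was not tested.

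Stellate cell and fibrosis markers were called higher in 5 of 11 and lower in none, led by the collagen genes Col1a1 (1.04 ± 0.11, adjusted p = 6.78e-15), Col3a1 (0.83 ± 0.096, adjusted p = 1.27e-13) and Col1a2 (0.76 ± 0.091, adjusted p = 4.83e-13). In high fat mice Col1a1 was correlated with several of the 9 genes: its r with Gpnmb was 0.814 in high fat males and 0.638 in high fat females, against 0.270 in chow males and 0.330 in chow females, where neither was called by the permutation test (adjusted p = 0.187 and 0.0815). With Cd63 it was 0.775 in high fat males and 0.746 in high fat females, and with Spp1 0.676 and 0.686. Over the whole list of 11, the median r with Gpnmb was 0.491 in high fat males (7 called positive) and 0.223 in high fat females (4 called). With Spp1 it was 0.370 in high fat males (5 called positive, and Reln negative at -0.411) and 0.0874 in high fat females (4 called). The summed signal of these 11 markers ran from 25.0 to 91.9 in high fat males and 20.8 to 91.1 in high fat females, against 15.4 to 72.6 in chow males and 19.2 to 78.8 in chow females. Bile duct markers, which matter for Spp1, were called higher in 3 and lower in 1 of 7, where 15.0% and 41.9% of all tested genes were. Among them Epcam changed by 0.33 ± 0.11 (adjusted p = 0.00488). Epcam had r with Spp1 of 0.529 in high fat males and 0.447 in high fat females, both called by the permutation test (adjusted p = 0.00223 and 0.0144). Krt19, a keratin of bile duct cells, had r with Spp1 of 0.132 in high fat males and 0.0073 in high fat females. Their summed signal had medians of 7.33 in high fat males and 6.44 in high fat females, against 7.43 in chow males and 6.85 in chow females. How much of the Spp1 difference comes from duct or stellate cells was not tested.

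Sinusoidal endothelial markers were called higher in 1 and lower in 3 of 8, a share lower near the 41.9% of all tested genes, hepatocyte markers lower in 4 of 6, and acinar pancreas markers in 0 of 9, the nearest being Cela2a (-0.51 ± 0.26, adjusted p = 0.0879). Lyve1, a hyaluronan receptor of sinusoidal and lymphatic endothelium, was the endothelial marker that rose (0.66 ± 0.13, adjusted p = 4.90e-06).

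Of 23 other genes reported in lipid-associated macrophages, 13 were called higher on the high fat diet and 3 lower, with a median of 0.11, against -0.067 over all tested genes. The fatty acid carrier gene Cd36 (0.93 ± 0.11), Anxa5, whose protein binds phosphatidylserine on dying cells (0.62 ± 0.073), the sterol exporter gene Abcg1 (0.41 ± 0.053) and the lysosomal protease gene Ctsd (0.24 ± 0.030) had the smallest p-values (adjusted p = 8.61e-14, 2.72e-13, 2.18e-11 and 4.38e-12). Hepatocytes and endothelial cells also express several of these 23, among them Ctsd, whose signal averaged 85.4 in high fat males and 96.0 in high fat females, against 75.0 in chow males and 77.6 in chow females.

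Genes that act with TREM2 and DAP12 were called higher in 7 and lower in 1 of 10 tested (median 0.23). In males 6 were higher and none lower, where 11.4% of all tested genes were called higher and 39.8% lower. In females none was higher and 1 lower, where 10.0% and 23.3% were. Syk, the kinase that binds phosphorylated DAP12, changed by 0.42 ± 0.090 in males (adjusted p = 3.24e-05) and by 0.15 ± 0.088 in females (adjusted p = 0.197). Btk, a kinase of the same cascade, changed by 0.45 ± 0.095 in males (adjusted p = 3.03e-05) and 0.045 ± 0.093 in females (adjusted p = 0.748), and Inpp5d, the phosphatase that restrains it, by 0.33 ± 0.081 and 0.13 ± 0.079 (adjusted p = 0.000241 and 0.197). Across the list 1 of 10 was called for the difference between the sexes in the diet effect, higher in males. Over all tested genes 1.46% were called higher and 6.92% lower in that test.

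Receptors of osteopontin were called higher in 5 and lower in 1 of 7 (median 0.13). Cd44, its non-integrin receptor, changed by 0.33 ± 0.086 (adjusted p = 0.000448) and the integrin gene Itga4 by 0.22 ± 0.060 (adjusted p = 0.000835), while Itgb1 changed by -0.085 ± 0.020 (adjusted p = 9.72e-05). This Itgb1 change lay near that of the median tested gene (-0.067, and 0.0054 after median-of-ratios rescaling). Among beta2 integrins and other galectins 3 of 7 were higher and none lower. Lgals1, the galectin-1 gene, changed by 1.05 ± 0.16 (adjusted p = 4.97e-09), with means of 3.93 in high fat males and 4.07 in high fat females, against 1.45 in chow males and 1.58 in chow females. Itgb2, the beta chain that pairs with CD11c, changed by 0.27 ± 0.082 (adjusted p = 0.00242).

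Of 8 other tetraspanins 2 were called higher and 2 lower, where 15.0% and 41.9% of all tested genes were. Tspan8 (0.50 ± 0.094) and the leukocyte gene Cd53 (0.22 ± 0.074) were higher, and Tspan33 (-0.40 ± 0.082) and Cd82 (-0.068 ± 0.030) lower (adjusted p = 2.11e-06, 0.00869, 7.97e-06 and 0.0444). The Cd82 change was about that of the median tested gene (-0.067), which was 0.0054 after median-of-ratios rescaling. MiT/TFE transcription factors, which switch on lysosomal genes and Gpnmb in cultured macrophages, and lysosomal genes had 2 of 17 members higher and 7 lower, shares near those of all tested genes (15.0% and 41.9%). Lamp2 (-0.26 ± 0.025, adjusted p = 8.69e-18) and the factor Tfe3 (-0.14 ± 0.023, adjusted p = 2.35e-08) were lower, and the lysosomal enzyme gene Hexa (0.37 ± 0.057, adjusted p = 1.22e-08) was higher. Of 4 tested chemokines that recruit macrophages, Ccl2, the ligand of CCR2, was higher (0.90 ± 0.12, adjusted p = 3.96e-11) and Ccl9 lower (-0.37 ± 0.058, adjusted p = 1.75e-08). Lipid droplet genes were higher in 9 and lower in none of 11 (median 0.53), led by Mogat1 (2.15 ± 0.17, adjusted p = 2.17e-23) and Cidec (1.68 ± 0.19, adjusted p = 8.30e-14). That list was higher in 4 of 11 in males and 8 of 11 in females, where 11.4% and 10.0% of all tested genes were.

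The generation label did not divide the 9 genes. None was called by limma between G11L2 and G11L1 mice, and 0 of 9 had an unadjusted p under 0.05, where 0.938% of all tested genes were called. The nearest was Cd9, at 0.14 ± 0.078 (adjusted p = 0.409). Within the labels the diet change averaged over the sexes was 2.45 in G11L2 and 2.12 in G11L1 mice for Gpnmb, 1.28 and 1.22 for Trem2, 1.87 and 1.82 for Mmp12, and 0.99 and 0.92 for Cd63. The median r of the 36 pairs was 0.577 in G11L2 and 0.507 in G11L1 high fat males, and 0.719 and 0.625 in high fat females. Diet, sex and generation comparisons of the 9 genes that were not called do not show that the groups were alike.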

How the data were processed

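Livers of 192 mice were sequenced as 384 single-end libraries of 100 bp, 2 technical repeats a mouse. The authors deposited 1 table with a column a mouse, whose values are a signal normalized to each mouse's upper quartile. The submitters' processing notes list CASAVA 1.8.0 together with GRCm38 and mm10; aligner, counter and annotation are not given in the sources used here. Of the gene IDs, 21022 matched GENCODE M21 and 432 did not. Of values up to 100 reads, 76.8% to 82.4% a mouse (median 79.8%) were whole to 0.1 of a read. That is too few to recover reads, so no count test was run and precision rests on the number of mice.

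Genes above 0 in at least 46 mice with a mean of at least the pseudocount (0.0629, 1/100 of the median upper quartile, about 3.99 reads of the median mouse) were tested across all genes with limma 3.58.1 in R 4.3.3, with trend moderation, 4 group means and the generation label. Spread was tested likewise on absolute deviations from group medians. Correlations and figures used Python 3.11.15, NumPy 2.4.6, SciPy 1.17.1 and Matplotlib 3.10.9. The fit and the correlation test were tested on simulated data. Lists of cell type and pathway genes, the motifs and the 9 genes were chosen with earlier results of these data known. All 9 genes are named, with the 3 genes most like each (Spearman) and, of each other list, up to 4 with the smallest diet p; other genes were named after their values were seen. Alternatives were other pseudocounts, filters, scalings, covariates, weights, generation labels alone and, added after seeing the data, fits without mice with pancreas transcripts or low Xist.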

Additional observations from a re-analysis of the deposited data

Results flagged for a closer look

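The diet effect differed between males and females, by the interaction term of the limma fit, for 2 of the 9 genes. For Cd9 the diet change was lower in males by -0.67 ± 0.16 (log2, SE, adjusted p = 0.00242), with -0.18 ± 0.11 in males and 0.49 ± 0.11 in females. For Lgals3 it was larger in males by 0.72 ± 0.20 (adjusted p = 0.0124), with 1.11 ± 0.14 in males and 0.39 ± 0.14 in females.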

How the results depend on the processing

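All 9 genes kept their direction wherever they were called, and 918 of 958 single values kept their side of the threshold as well, while 28 lost and 12 gained a call. The count of the 9 genes called by diet averaged over the sexes ran from 6 (a filter at a mean of 10 pseudocounts, which removes Trem2 and Itgax) to 9 (both rescalings). Diet in females fell to 5 of 9 in G11L1 mice alone, against 8. For males against females on chow the count was 3 after median-of-ratios rescaling, 3 after quantile normalization and 2 in G11L2 mice alone, against 5. On the high fat diet it was 2 in G11L1 and 0 in G11L2 mice alone, against 4. The interaction count was 4 with array weights, 4 with coat colour added, and 0 in either label alone, against 2. Spread was called for 3 of 9 with a pseudocount 10 times smaller, against 6. Positive pairs were 18 without the 2 farthest mice, 15 in G11L1 and 18 in G11L2 high fat males, against 31; 9 after median-of-ratios rescaling and 2 in G11L1 chow females, against 5; and 2 after that rescaling, 0 in G11L1 and 3 without the mice with pancreas transcripts in chow males, against 1. Fits on either label alone also use fewer mice, and the cause of these shifts was not tested. All-gene counts moved past 1.5 times for diet in females (2348 in G11L1, 2432 in G11L2, against 4860), diet in males (4906 after quantile normalization, 4930 in G11L2, against 7479), males against females on the high fat diet (4748 in G11L2, against 7263), interaction (617, 633, 546 and 54 after median-of-ratios rescaling, after quantile normalization, in G11L1 and in G11L2, against 1223), generation (262, 254 and 344 after both rescalings and with array weights, against 137) and spread (576 and 185 with a pseudocount 10 times larger and smaller, against 325).

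Mouse numbers are shared between the sexes, and whether they pair mice was not tested. Over 92 numbers the correlation of deviations ran from -0.171 to 0.316 with a median of 0.0105, and 10 were over 0.1. With the number as a replicate block, 5 of 9 genes were called between males and females on chow, 5 on the high fat diet (Gpnmb gained, 0.74, adjusted p = 0.0296) and 3 for the interaction (Trem2 gained, 0.71, adjusted p = 0.0289). Fewer than 10 reads in most chow mice limit Gpnmb and Trem2 there.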
